A study of Mus musculus with 36 samples.

Results

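Immediate-early response genes are switched on within minutes of a signal, without new protein synthesis, and are switched off again soon after. Growth factors acting through the RAS, MEK and ERK kinases, stress acting through the JNK and p38 kinases, and the handling of cells all evoke them, mostly through the serum response factor SRF with its ELK partners and through CREB. In epiblast stem cells, the ERK arm is fed by the FGF in the medium. The 10 genes described here are Fos, Fosb, Jun and Junb, whose proteins pair to form the AP-1 transcription factor, Egr1 and Egr2, zinc finger factors downstream of ERK, Atf3, a stress-responsive partner of the Jun proteins, Nr4a1, an orphan nuclear receptor, Ier2, a small nuclear protein, and Dusp1, a phosphatase that switches off MAP kinases. They were chosen by name with their values in these libraries already known, so their levels and fold changes are given as a description. The test run on all genes covered them too, and nothing is read from its calls for these 10. They are 10 of the 29267 genes listed for 7 of the RNA-seq libraries and of the 50600 listed for the other 4.

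The mouse study converts epiblast stem cells (EpiSCs), the primed pluripotent cells of the post-implantation epiblast, to naive pluripotency or to primordial germ cell-like cells in defined media, and 11 bulk RNA-seq libraries from 3 experiments were used. The first experiment holds 3 libraries of EpiSCs kept in N2B27 medium with Activin A, bFGF and XAV939, and 2 libraries of BV+SC+ cells, which carried the Blimp1-mVenus and Stella-ECFP reporters, and were purified on both by FACS at Day 6. The BV+SC+ cells had spent 3 days in iCD1 medium (Vitamin C, bFGF, LiCl, LIF and CHIR99021) with BMP4, the DOT1L inhibitor EPZ5676 and the EZH2 inhibitor EPZ6438. For the next 3 days the culture notes give N2B27 with Vitamin C, CHIR99021 and the MEK inhibitor PD0325901, and the methods add LIF. The labels code replicate 1 as 2iJi and replicate 2 as GK15, a name the study also uses for another second-stage medium, so exposure to the MEK inhibitor is not established for replicate 2. The paper also describes adding a JAK inhibitor in the second stage. Whether the code 2iJi refers to it is not given here, so exposure of replicate 1 to a JAK inhibitor is unknown. The second experiment holds 2 libraries each of c-Kit+ and c-Kit- cells, sorted at Day 3 of the first stage, in which the methods allow EPZ5676 or SGC0946, after trypsin dissociation and antibody staining. The third holds 1 library of cells at Day 3 of the first stage with and 1 without SGC0946, which also inhibits DOT1L. The methods give the medium of that stage as iCD1 with BMP4 and EPZ6438 beside the DOT1L inhibitor. The paper describes the library without SGC0946 as lacking DOT1L inhibitor treatment. The EpiSCs carry no label of a sort, so sorting, medium and stage differ together between EpiSCs and BV+SC+ cells, and cannot be told apart. Cell line may differ as well. The paper describes EpiSCs derived from mixed-strain embryos with an Oct4-GFP reporter, and others derived from embryonic stem cells with the Blimp1 and Stella reporters. Which of these gave the EpiSC, c-Kit and SGC0946 libraries is not given here. The labels give EpiSC replicate 1 a code of another form than replicates 2 and 3. None of the labels says whether replicates were separate cultures, so the spread between them may be technical. Since the codes of the 2 BV+SC+ libraries differ, their spread may also hold a difference in medium, and the 2 cannot be told apart. They are treated below as replicates of 1 group. In each bulk library, fewer cells with a transcript and less transcript per cell cannot be told apart.

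Total expected counts were 1726038 to 1841442 in the c-Kit libraries, 2444211 to 3070115 in the EpiSC libraries, 14778809 and 18099059 in the BV+SC+ libraries and 4776143 and 4577685 in the libraries with and without SGC0946. Marker levels were set beside the labels. The 5 EpiSC markers (Pou5f1, Sox2, Otx2, Fgf5, Dnmt3b) summed to 3066 to 3134 TPM (transcript abundance per length, scaled to a fixed library total) in the EpiSC libraries. In the BV+SC+ libraries they summed to 1876 and 2017 TPM, and they did not move together. By the rule given below, Fgf5 and Dnmt3b were lower in BV+SC+ cells, Sox2 was higher (log2 fold change 1.68), and Pou5f1 (-0.41) and Otx2 were neither. The 5 germ cell markers (Prdm1, Dppa3, Nanos3, Tfap2c, Prdm14) summed to 1542 and 1605 TPM in BV+SC+ cells against 0.95 to 1.47 TPM in EpiSCs. Kit, the gene for the sorted surface protein, stood at 99.6 and 96.0 TPM in the c-Kit+ and at 4.81 and 3.24 TPM in the c-Kit- libraries. The c-Kit libraries list another gene set than the rest, so TPM values are compared within an experiment, and across the 7 libraries that share the 29267-gene listing only as a description.

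On GRCm38, Fos (ENSMUSG00000021250) lies on chromosome 12 at 85473890 to 85477273, Fosb (ENSMUSG00000003545) on chromosome 7 at 19302696 to 19310051, Jun (ENSMUSG00000052684) on chromosome 4 at 95049034 to 95052222, and Junb (ENSMUSG00000052837) on chromosome 8 at 84974484 to 84978718. Ier2 (ENSMUSG00000053560) lies on chromosome 8 at 84661331 to 84662852, Egr2 (ENSMUSG00000037868) on chromosome 10 at 67535475 to 67542188, Atf3 (ENSMUSG00000026628) on chromosome 1 at 191170296 to 191218039, Nr4a1 (ENSMUSG00000023034) on chromosome 15 at 101254269 to 101274795 and Dusp1 (ENSMUSG00000024190) on chromosome 17 at 26505590 to 26562128. Egr1 carries the identifier ENSMUSG00000038418. Jun shares 232 identical bases with its antisense transcript Junos, and Junb shares 176 with Prdx2 on the opposite strand, so reads there may be split between the partners, since the counting setting for strand was not given in the sources used here.

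RefSeq starts on GRCm38.p6 were found for 8 of the 10 genes (Egr1 and Ier2 were not searched), and the 500 bases before each start were searched on both strands. The CArG box, the binding sequence of SRF, occurred before Fos at -309 to -300 and before Fosb at -272 to -263, 2 of 8 against 2.75% of 32851 starts of all genes. The cAMP response element TGACGTCA, read by CREB, occurred before Dusp1 at -143 to -136 (1.93% of all starts), and TGACATCA, a site of Jun and ATF proteins, before Jun at -45 to -38 (4.02%). The EGR element, GCGTGGGCG or GCGGGGGCG, occurred before Fosb and Nr4a1 (3.95%), and TATAAA before Fos and Nr4a1 (24.3%). The AP-1 element TGACTCA occurred before none of the 8, and before 8.12% of all starts. None of these motifs overlapped another in the 8 windows. One stretch per gene with a match is printed 5′ to 3′ in the direction of the gene, with the matched letters in capitals, to show which elements the high-level members carry and what precedes Nr4a1, the member with the narrowest EpiSC range.
Fos, chr12:85473570-85473869, + strand: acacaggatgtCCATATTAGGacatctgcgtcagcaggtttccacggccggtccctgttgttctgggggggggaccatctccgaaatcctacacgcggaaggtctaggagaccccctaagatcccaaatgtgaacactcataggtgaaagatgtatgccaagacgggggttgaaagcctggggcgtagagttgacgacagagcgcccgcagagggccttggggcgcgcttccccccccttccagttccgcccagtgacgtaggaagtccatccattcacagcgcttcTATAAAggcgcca
Fosb, chr7:19310076-19310335, - strand: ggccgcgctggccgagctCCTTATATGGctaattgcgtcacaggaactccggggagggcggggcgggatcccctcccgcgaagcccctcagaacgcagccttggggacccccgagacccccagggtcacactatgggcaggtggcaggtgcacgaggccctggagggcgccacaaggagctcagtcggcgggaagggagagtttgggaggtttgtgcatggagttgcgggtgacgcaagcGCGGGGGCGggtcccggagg
Jun, chr4:95052223-95052342, - strand: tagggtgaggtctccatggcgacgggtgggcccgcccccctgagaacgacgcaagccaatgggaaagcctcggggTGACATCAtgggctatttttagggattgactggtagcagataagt
Dusp1, chr17:26508553-26508672, - strand: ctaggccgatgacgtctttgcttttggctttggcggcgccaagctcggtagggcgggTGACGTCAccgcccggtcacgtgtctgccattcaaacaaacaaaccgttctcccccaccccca
Nr4a1, chr15:101266726-101266845, + strand: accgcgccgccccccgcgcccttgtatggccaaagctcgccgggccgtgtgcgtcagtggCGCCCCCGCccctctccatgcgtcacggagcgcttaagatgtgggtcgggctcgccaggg
A match is a description of letters and no evidence of a bound factor.

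Across the libraries, the level of the 10 genes ranged from 0.11 TPM for Egr2 in a BV+SC+ library to 781 TPM for Fos in a c-Kit+ library. Their summed level was 2648 TPM in EpiSC replicate 1, 709 and 717 TPM in EpiSC replicates 2 and 3, 193 and 213 TPM in the BV+SC+ libraries, 1746 and 1687 TPM in the c-Kit- libraries, 2653 and 2317 TPM in the c-Kit+ libraries, and 883 and 621 TPM with and without SGC0946. Fos was the highest member in 6 libraries, EpiSC replicate 1, both c-Kit- and both c-Kit+ libraries and the library with SGC0946, and Ier2 in the other 5. Egr2 was the lowest in all 11.

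**Figure D1:**
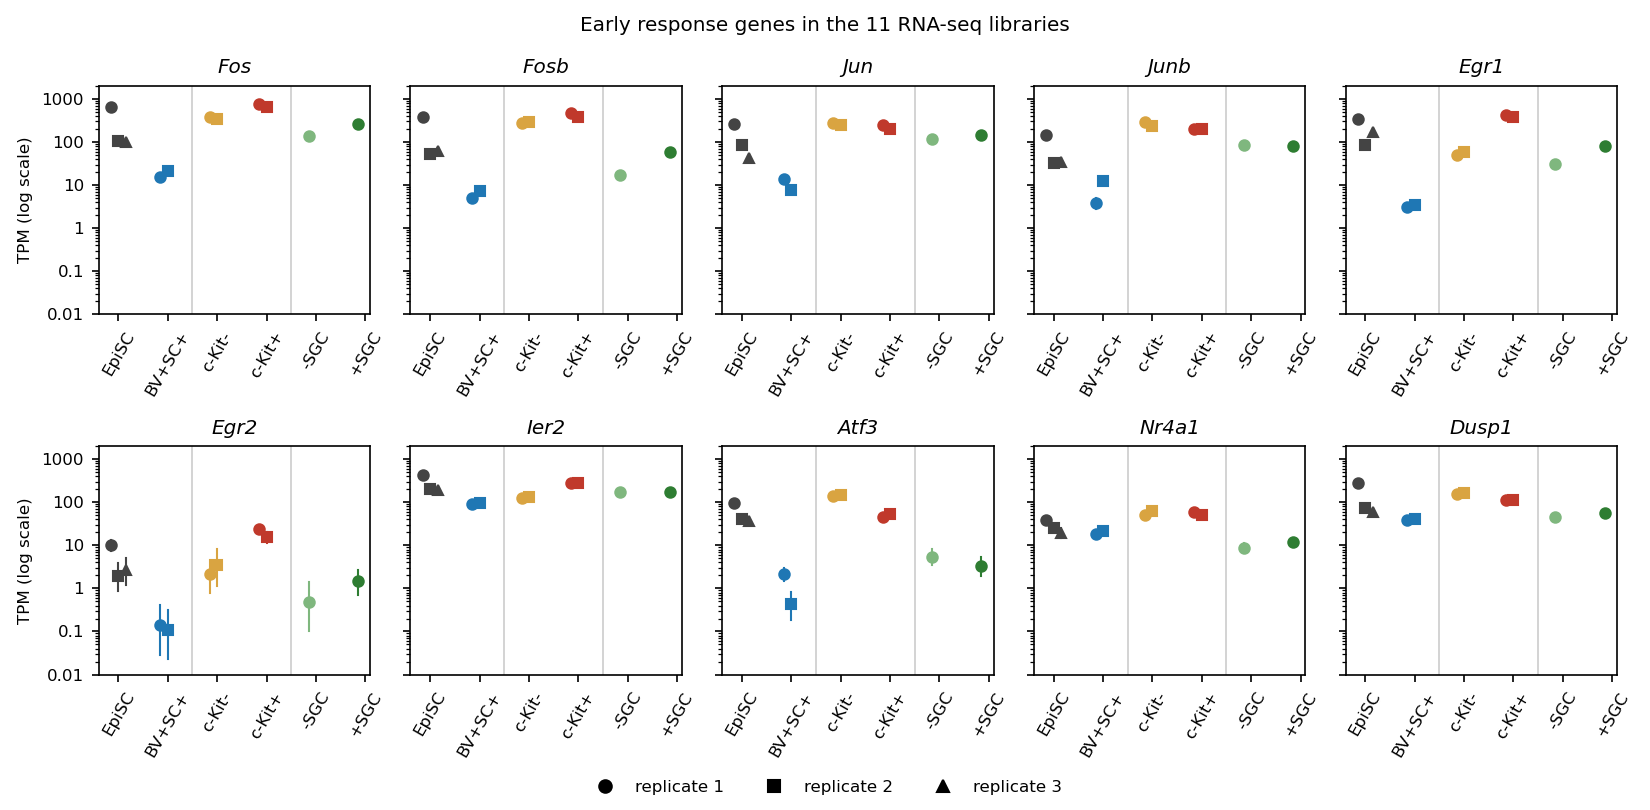
TPM of each of the 10 genes (log axis, the same in every panel) in the 11 libraries, by group, with the replicate given by the marker and the 95% Poisson interval of the count as a bar, for counting error only. EpiSC replicate 1 sits above the other EpiSC libraries for every gene, and both BV+SC+ libraries sit below all 3 EpiSC libraries for every gene but Nr4a1. The groups also lay apart, in either direction, for 11 of 16 upstream genes and 9 of 10 heat shock genes tested, which are not drawn.

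Among the 3 EpiSC libraries, all 10 genes were highest in replicate 1. So were 5 of 16 upstream kinases and transcription factors and 4 of 10 heat shock genes tested. The share of all genes highest there is not given here. Fos measured 654 TPM in replicate 1 (95% Poisson interval 626 to 682), against 105 (93.4 to 118) and 98.7 TPM (86.6 to 112) in replicates 2 and 3. Fosb measured 390 TPM against 52.3 and 62.4. Both AP-1 genes were thus high in 1 library, and the other 2 libraries lay close together.

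Jun, which encodes the main partner of the Fos proteins, measured 265, 83.9 and 42.6 TPM in replicates 1, 2 and 3, and Junb, its paralogue, 143, 33.2 and 34.4 TPM. Of the zinc finger factors, Egr1 measured 350, 83.7 and 168 TPM and Egr2 10.3, 1.97 and 2.69 TPM. Jun and Egr1 were the members that also differed between replicates 2 and 3, and in opposite directions, by 1.97-fold and 1.96-fold in normalised CPM (counts scaled to a fixed library total, without length). Dusp1, the phosphatase that ends the signal, measured 279, 73.5 and 60.2 TPM, with replicate 1 highest and the other libraries close together.

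Ier2, Atf3 and Nr4a1 differed least. Ier2 measured 422, 209 and 191 TPM, and Atf3 96.0, 41.4 and 36.5 TPM. Nr4a1 measured 39.0, 25.4 and 19.8 TPM, and its intervals in replicates 1 (33.1 to 45.7) and 2 (20.5 to 31.0) did not meet. As the ratio of highest to lowest library in normalised CPM, the spread ran from 7.59 for Fosb, 6.86 for Fos and 6.35 for Jun down to 2.24 for Ier2 and 2.00 for Nr4a1, with a median of 4.54. Nr4a1 lay on the 2-fold line and fell to 1.92 on the TPM + 1 scale. Over 2-fold spread was found for 10 of the 10 genes and for 9.47% of the 11792 genes tested, whose median spread was 1.24-fold. EpiSC replicate 1 was more than 2-fold above both other libraries for 9 of the 10 genes, Nr4a1 being the exception, and for 1.16% of all genes. Without replicate 1, 0 of the 10 genes were over 2-fold apart, with Jun (1.97) and Egr1 (1.96) just below. Leaving out the library that was highest for all 10 can only narrow these ranges. The share of all genes over 2-fold apart without replicate 1 is not given here.

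Genes around the 10 were compared in the same way. Of the 20 other early response genes tested, 6 were over 2-fold apart among the EpiSC libraries (Fosl1, Dusp5, Zfp36, Csrnp1, Klf6 and Myc), and 18 were highest in replicate 1, but 2, Zfp36 and Klf6, were 2-fold above both others. Zfp36, whose protein degrades early response mRNAs, measured 40.6, 14.2 and 14.5 TPM, and Klf6, a zinc finger factor, 84.2, 32.5 and 27.8 TPM. Egr3 and Egr4, which failed the filter on low counts, had 22 and 30 counts in replicate 1 against 0 to 6 in replicates 2 and 3. None of 16 upstream kinases and transcription factors and none of 10 heat shock genes tested was 2-fold apart, and 5 and 4 of them were highest in replicate 1. The summed level of the heat shock genes, which respond to misfolded protein, was 13083, 12395 and 13035 TPM, and that of the EpiSC markers 3134, 3066 and 3091 TPM. Genes outside these lists also stood high in replicate 1. Ranked by log2 CPM in replicate 1 minus the mean of replicates 2 and 3, Klf4 (3.01) and Klf2 (2.93), factors of naive pluripotency named after their values were seen, came 3rd and 4th of all genes, before Fosb (2.80) and Fos (2.77). Depth was 3070115, 2970222 and 2444211 counts. The part of the library code, cell line, passage or handling in the difference was not tested.

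**Figure D2:**
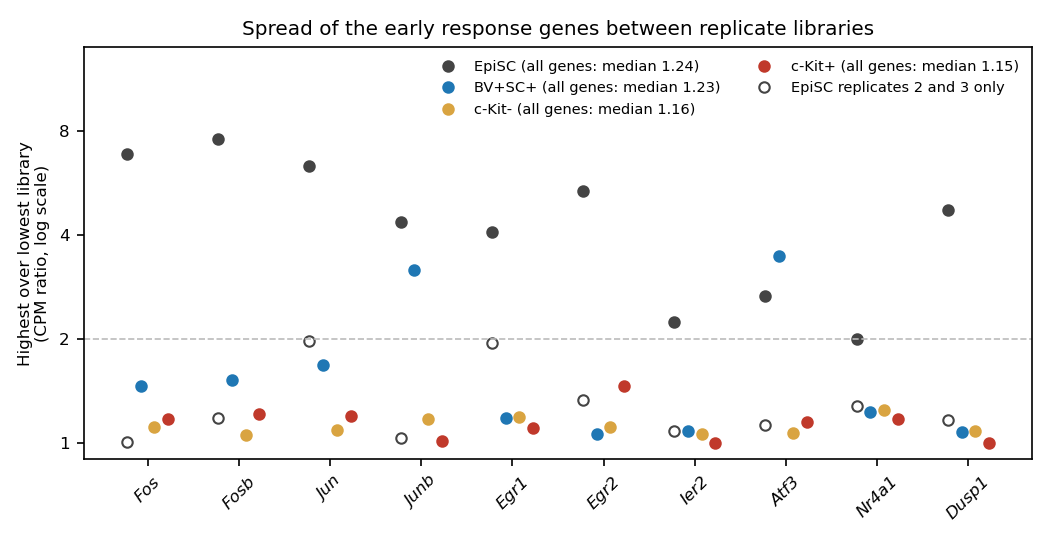
Ratio of the highest to the lowest library of a group in normalised CPM (log axis) for each gene, for 3 EpiSC libraries and 2 libraries of each other group, with the median over all genes tested in the legend. In EpiSCs all 10 genes lie at or above the dashed line at 2, and the open circles, which leave out replicate 1, all lie below it.

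The same measure was small in the sorted Day 3 cells. Between the 2 c-Kit+ libraries, 0 of the 10 genes were over 2-fold apart (3.33% of the 11018 genes tested were), and the widest ratio was 1.47 for Egr2, from 66 and 47 counts. Between the 2 c-Kit- libraries the number was again 0 (5.63% of all genes), with Nr4a1 the widest at 1.25. Between the BV+SC+ libraries it was 2 (10.4% of all genes). Junb was 3.18-fold higher in replicate 2, and Atf3 3.48-fold higher in replicate 1, from 33 and 8 counts. These 2 libraries carry different codes, and the part of the medium was not tested.

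In BV+SC+ cells, all 10 genes had lower means than in EpiSCs, while 52.3% of all 11792 genes tested had a log2 fold change above 0. The groups did not overlap for 9 of the 10 genes. They did not overlap either for 12 of 20 other early response genes, 11 of 16 upstream genes and 9 of 10 heat shock genes. The share of all genes without overlap is not given here. Fos measured 15.6 and 20.9 TPM in the 2 BV+SC+ libraries and 98.7 to 654 TPM in the EpiSC libraries, a log2 fold change of -4.36 (SE 0.95, n = 2 and 3). Fosb measured 4.97 and 7.41 TPM against 52.3 to 390 TPM (log2 -4.69, SE 0.98). Every BV+SC+ library lay below every EpiSC library for both genes.

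Jun, at 13.5 and 7.68 TPM, and Junb, at 3.78 and 12.2 TPM, also lay below all 3 EpiSC libraries, with log2 fold changes of -3.57 (SE 0.75) and -3.05 (SE 0.78). Egr1 had the lowest log2 fold change of the 10, -5.78 (SE 0.63), from 3.12 and 3.49 TPM against 83.7 to 350 TPM. Egr2 had 3 counts in each BV+SC+ library and 47, 8 and 9 in EpiSCs, so that pooled CPM was 41.3 times higher in EpiSCs, with a 95% counting interval of 17.98 to 116.81. Neither zinc finger gene overlapped between the groups, and Egr2 was at the floor of 3 counts in both BV+SC+ libraries.

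Atf3, at 2.12 and 0.43 TPM, also lay below all 3 EpiSC libraries (log2 -5.48, SE 0.70). Ier2 and Dusp1 kept more of their level. Ier2 measured 92.99 and 97.95 TPM against 191 to 422 TPM (log2 -1.46, SE 0.33), and Dusp1 38.5 and 40.7 TPM against 60.2 to 279 TPM (log2 -1.69, SE 0.62). Nr4a1 measured 18.4 and 22.1 TPM against 19.8 to 39.0 TPM (log2 -0.40, SE 0.29), and its groups overlapped.

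By the rule used for all genes, an edgeR adjusted p under 0.05 and a change over 2-fold, 9 of the 10 genes were lower and 0 higher in BV+SC+ cells. Of all 11792 genes tested, 17.2% were lower, 16.8% higher and 34% either. Since the genes were chosen with these values known, nothing is read from the count. The median log2 fold change was -3.96 over the 10 genes and 0.05 over all genes. Because EpiSC replicate 1 raised the EpiSC mean, the fit was repeated without it. All 10 values stayed negative and the median was -2.65, against 0.08 over all genes in that fit. The number passing was 7 rather than 9, all lower, against 14.6% lower and 16.1% higher of 13090 genes. Fos came to -2.80 (SE 0.23), Fosb to -3.11 (SE 0.26), Jun to -2.51 (SE 0.39) and Junb to -1.98 (SE 0.55). Egr1 came to -5.11 (SE 0.37), Egr2 to -4.02 (SE 0.73) and Atf3 to -4.88 (SE 0.65), whereas Ier2 came to -0.99 (SE 0.15) and Dusp1 to -0.60 (SE 0.18), both under 2-fold. The unlike BV+SC+ libraries also moved Junb, to -2.45 without replicate 1 and -4.18 without replicate 2, and Atf3, to -6.94 and -4.73. Nr4a1 came to -0.08 (SE 0.25). Trophoblast markers summed to 152 and 55.2 TPM in the BV+SC+ and 28.6 to 48.3 TPM in the EpiSC libraries, and fibroblast markers to 4.95 and 5.07 against 23.4 to 39.5 TPM, with Dcn at 0 in both BV+SC+ and Lum at 0 in all 3 EpiSC libraries. Their part in the differences was not tested.

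**Figure D3:**
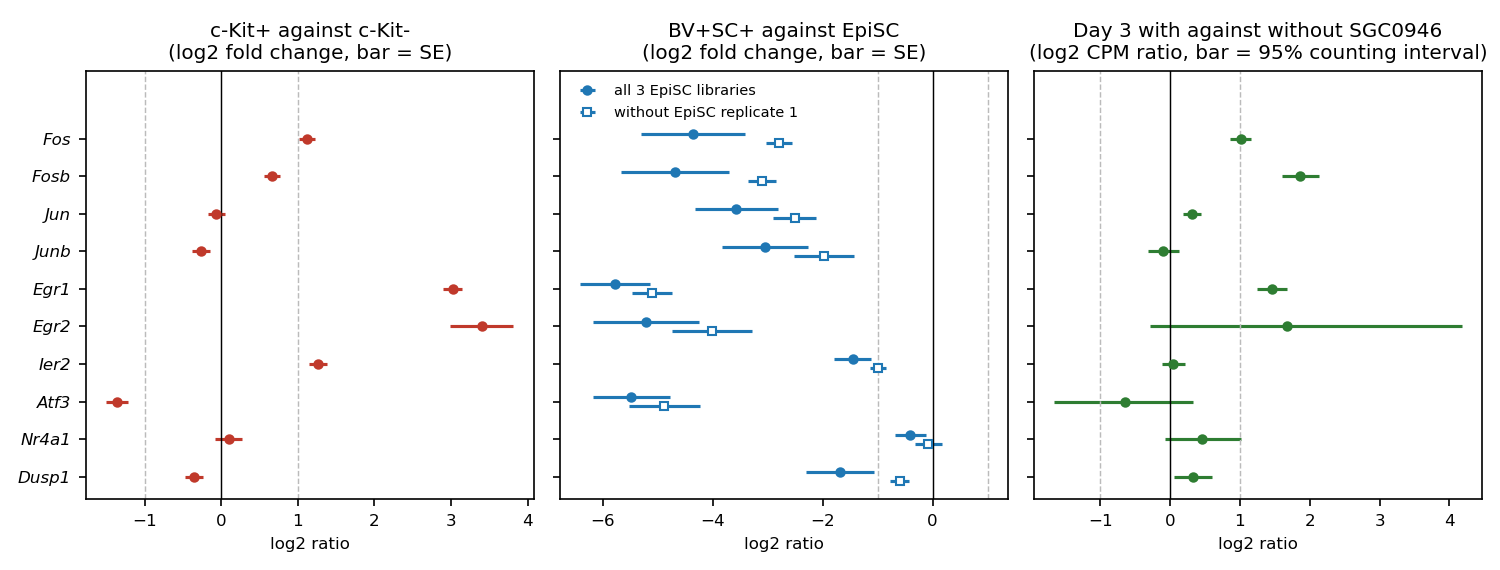
Log2 ratios of the 10 genes in the 3 comparisons, with dashed lines at 2-fold. Bars are standard errors of the edgeR fit in the left and middle panels and 95% counting intervals in the right panel, where each condition is 1 library. Egr1 and Egr2 lie farthest to the right among c-Kit+ cells, all 10 genes lie left of 0 in BV+SC+ cells with and without EpiSC replicate 1, and in CPM the ratios of Fosb, Egr2, Egr1 and Fos lie beyond 2-fold with SGC0946, with the interval of Egr2 reaching below 0 on the log2 axis.

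At Day 3, the c-Kit sort divided the 10 genes rather than moving them together. The Egr genes differed most. Egr1 measured 422 and 373 TPM in the c-Kit+ and 50.4 and 57.3 TPM in the c-Kit- libraries, a log2 fold change of 3.02 (SE 0.12, n = 2 and 2). Egr2 measured 23.7 and 15.5 TPM against 2.14 and 3.49 TPM (log2 3.40, SE 0.41), from 66 and 47 counts against 6 and 5. Neither gene overlapped between the groups.

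Fos measured 781 and 653 TPM in the c-Kit+ and 383 and 343 TPM in the c-Kit- libraries (log2 1.12, SE 0.10). Fosb was also above, at 472 and 372 TPM against 276 and 288 TPM (log2 0.67, SE 0.11), and the groups of both genes were apart. The Jun genes did not follow their partners. Jun measured 249 and 205 TPM against 276 and 248 TPM (log2 -0.07, SE 0.11), with overlapping groups, and Junb 199 in both libraries against 288 and 240 TPM (log2 -0.27, SE 0.12).

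Ier2 measured 285 and 281 TPM against 127 and 133 TPM (log2 1.26, SE 0.12). Atf3 went the other way, with 46.6 and 53.3 TPM in c-Kit+ and 138 and 145 TPM in c-Kit- cells (log2 -1.36, SE 0.15). Dusp1 was lower in c-Kit+ cells, at 114 and 115 TPM against 155 and 165 TPM (log2 -0.36, SE 0.12). Nr4a1 overlapped, at 60.5 and 50.7 TPM against 51.2 and 63.2 TPM (log2 0.10, SE 0.18). By the rule for all genes, 4 of the 10 (Fos, Egr1, Egr2 and Ier2) were higher and 1 (Atf3) lower in c-Kit+ cells, and of all 11018 genes tested 9.98% were higher, 12.9% lower and 22.9% either. Nothing is read from this count, for the reason given above. Without c-Kit+ replicate 1, Fos came to 0.98 (SE 0.13) and no longer exceeded 2-fold.

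The sorted populations differed in cell type markers as well. The 5 trophoblast markers (Plac1, Gata2, Krt8, Peg10, Tead3) were all lower in c-Kit+ cells and summed to 1184 and 1055 TPM against 4653 and 4329 TPM in c-Kit- cells. All 5 fibroblast markers tested of 8 were lower too, summing to 61.5 and 49.5 against 193 and 166 TPM, with Dcn and Lum at 0 to 2 counts in all 4 libraries. The summed EpiSC markers were 1497 and 1578 TPM in c-Kit+ and 118 and 116 TPM in c-Kit- cells. Mitochondrial genes took 3.71% and 4.09% of c-Kit+ and 2.07% and 3.04% of c-Kit- counts. The part of these differences in the early response genes was not tested.

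With SGC0946 at Day 3, Fosb and Egr1 exceeded 2-fold on the TPM + 1 scale used for calls, each from 1 library per condition, so no replicate check exists. Fosb measured 60.2 TPM with and 16.8 TPM without the inhibitor, and the CPM ratio was 3.65 (95% counting interval 3.04 to 4.40). Egr1 measured 81.8 against 30.6 TPM, with a ratio of 2.76 (2.38 to 3.20). Fos measured 266 against 135 TPM, with a ratio of 2.01 (1.82 to 2.23) in CPM and 1.97 on the TPM + 1 scale, so it lay on the 2-fold line.

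Jun, at 144 against 118 TPM, had a ratio of 1.24 (1.14 to 1.36), and Dusp1, at 57.9 against 46.2 TPM, 1.26 (1.04 to 1.52). The intervals of Junb (0.81 to 1.09), Ier2 (0.92 to 1.16), Atf3 (0.32 to 1.25) and Nr4a1 (0.95 to 2.02) included 1. Egr2 had 10 and 3 counts, and its ratio of 3.20 had an interval from 0.82 to 18.1, so no difference was detectable at this depth. Over 2-fold on the TPM + 1 scale, 2 of the 10 genes were higher and 0 lower, against 6.33% higher, 3.45% lower and 9.78% either of the 14038 genes with a TPM above 1 in at least 1 of the libraries. The median log2 ratio was 0.36 over the 10 genes and 0.01 over these 14038. Of 23 other early response genes that passed, Csrnp1 (45.1 against 21.0 TPM) and Gadd45b (23.2 against 8.32 TPM) were over 2-fold higher and 0 lower. The target gene Dot1l measured 66.8 and 62.1 TPM, which says nothing of the activity of its protein. Germ cell markers summed to 200 with and 69.4 TPM without the inhibitor, and EpiSC markers to 692 and 165 TPM. The EpiSC sum differed mostly through Pou5f1, at 549 and 67.3 TPM. Sox2 measured 101 and 57.7 TPM, Dnmt3b 40.4 and 39.1 TPM, and Otx2 and Fgf5 had 0 to 4 counts. Trophoblast markers summed to 1637 and 1948 TPM and fibroblast markers to 306 and 299.9 TPM, and their part in the ratios was not tested.

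The balance of the 10 genes shifted between populations as well as their sum. Fos and Fosb together over Jun and Junb gave a TPM ratio of 2.80 and 2.53 in the c-Kit+ libraries and of 1.17 and 1.29 in the c-Kit- libraries, with no overlap. The ratio was 1.19 and 1.42 in BV+SC+ cells, which met the EpiSC range of 1.34 to 2.56, and it was 1.46 with and 0.74 without SGC0946. Ier2 alone made up 48.2% and 46.0% of the summed TPM in the BV+SC+ libraries, against 15.9% to 29.4% in EpiSCs. Egr1 made up 1.62% and 1.64% in BV+SC+ cells, 11.8% to 23.5% in EpiSCs, 15.9% and 16.1% in c-Kit+ and 2.89% and 3.40% in c-Kit- cells.

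Over the 7 libraries with the shared gene listing, the log2(TPM + 1) of pairs of the 10 genes had a median Pearson r of 0.84 over 45 pairs, from -0.04 for Junb with Nr4a1 to 0.98 for Fosb with Egr2. Nr4a1 was the member least like the mean of the 10, with an r of 0.39, and the other 9 lay between 0.855 and 0.991. These 7 points come from EpiSCs, BV+SC+ cells and Day 3 cells with or without SGC0946, and include the high EpiSC replicate 1, so r is a description. Of 10628 other genes averaging 5 TPM or more, those most like the mean of the 10 were Jund (r = 0.999), Nrbp2 (0.994), Srsf2 (0.986), Haus7 (0.986) and Unc45b (0.978). Jund, the third Jun gene, measured 285, 156 and 148 TPM in EpiSC replicates 1 to 3, 67.6 and 66.2 TPM in BV+SC+ cells, and 145 and 115 TPM with and without SGC0946, and thus covered a narrower range than its relatives.

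Of the 27 other early response genes, 25 could be tested between the sorted Day 3 cells, and edgeR called 3 higher and 7 lower in c-Kit+ cells, beside 9.98% higher and 12.9% lower of all genes. This list and the upstream and heat shock lists were also chosen with earlier results of these data known. Values are given for the called genes of largest change, so their adjusted p-values are a description and no independent support. Those higher were Egr3, Egr4 and Dusp4, and those lower were Fosl1, Fosl2, Jund, Gadd45b, Myc, Npas4 and Rhob. Egr3 measured 48.8 and 33.4 TPM against 6.94 and 10.9 TPM (log2 2.33, SE 0.37, edgeR adjusted p = 0.000973). Egr4 had 28 and 11 counts against 1 and 2, a CPM ratio of 13.2 with a counting interval of 4.20 to 66.8 (edgeR adjusted p = 0.00513). All 4 Egr genes were therefore higher in c-Kit+ cells, of which Egr1 and Egr2 belong to the 10.

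Dusp4, a phosphatase of nuclear ERK, measured 109 and 107 TPM against 13.6 and 18.8 TPM (log2 2.88, SE 0.18, edgeR adjusted p = 4.39e-06). Npas4, a neuronal activity factor, had 0 and 2 counts against 13 and 17, a CPM ratio of 14.8 in favour of c-Kit- cells with a counting interval of 3.75 to 127 (edgeR adjusted p = 0.00588). Its call was lost without c-Kit+ replicate 1 (edgeR adjusted p = 0.0628), and its log2 fold change went from -3.69 to -2.84 there and to -6.90 without c-Kit+ replicate 2. The median log2 fold change of the list was -0.35 against 0.03 over all genes. Against the same shares of all genes, 1 of 18 upstream genes was lower and 0 higher, Elk3, an SRF partner (log2 -1.27, SE 0.27, edgeR adjusted p = 0.00483), and the number was 2, 2 and 3 without c-Kit+ replicate 1, c-Kit+ replicate 2 and c-Kit- replicate 2. Of 10 heat shock genes tested, 1 was lower and 0 higher, Hspa1b (log2 -2.96, SE 0.41, edgeR adjusted p = 0.000441), an inducible chaperone with 20.5 and 17.3 TPM in c-Kit- and 1.67 and 2.79 TPM in c-Kit+ cells.

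In BV+SC+ cells against EpiSCs, 20 of the other early response genes were tested, of which 3 were higher (Dusp4, Gadd45b and Ctgf) and 7 lower (Fosl1, Fosl2, Jund, Maff, Btg2, Myc and Cyr61), beside 16.8% higher and 17.2% lower of all genes. Fosl1, a Fos relative, had 2 counts in each BV+SC+ library and 25, 10 and 11 in EpiSCs, and pooled CPM was 44.6 times higher in EpiSCs (interval 16.3 to 170, edgeR adjusted p = 0.000517). Myc, a growth regulator, measured 3.15 and 5.27 against 79.02 to 165 TPM (log2 -4.62, SE 0.43, edgeR adjusted p = 9.87e-05). Cyr61, a matricellular protein, measured 7.96 and 18.3 against 157 to 242 TPM (log2 -3.88, SE 0.38, edgeR adjusted p = 0.000128), and its log2 fold change was -4.65 without BV+SC+ replicate 2.

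Ctgf, a relative of Cyr61, went the other way. It had 431 and 797 counts in BV+SC+ cells and at most 2 in each EpiSC library, and pooled CPM was 52.8 times higher in BV+SC+ cells (interval 24.2 to 144, edgeR adjusted p = 2.7e-05). The list thus held genes moving in both directions, with a median log2 fold change of -0.41. Of 16 upstream genes tested, 2 were lower and 1 higher, beside 17.2% and 16.8% of all genes. Srf was lower (26.6 and 45.8 against 105 to 116 TPM, log2 -1.51, SE 0.23, edgeR adjusted p = 0.000989), as was Mapk8, the gene of the JNK1 kinase (log2 -1.09, SE 0.14, edgeR adjusted p = 0.000447), and Mkl2, a coactivator of SRF, was higher. Without BV+SC+ replicate 1, Mapk8 came to -0.98 and the list held 1 call.

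Heat shock genes, which mark protein stress, were compared in the same cells. Of 10 tested, 4 were higher in BV+SC+ cells (Hspa1b, Hspb1, Hsp90aa1 and Dnaja1) and 0 lower, beside 16.8% and 17.2% of all genes, and without BV+SC+ replicate 2 the number higher was 2. Hspa1b had 219 and 158 counts against 1 to 3 in EpiSCs, a CPM ratio of 13.9 with an interval of 6.68 to 34.8 (edgeR adjusted p = 0.000465). Hspb1, a small chaperone, measured 559 and 420 TPM against 60.03 to 75.25 TPM (log2 2.87, SE 0.17, edgeR adjusted p = 1.26e-05).

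**Figure D4:**
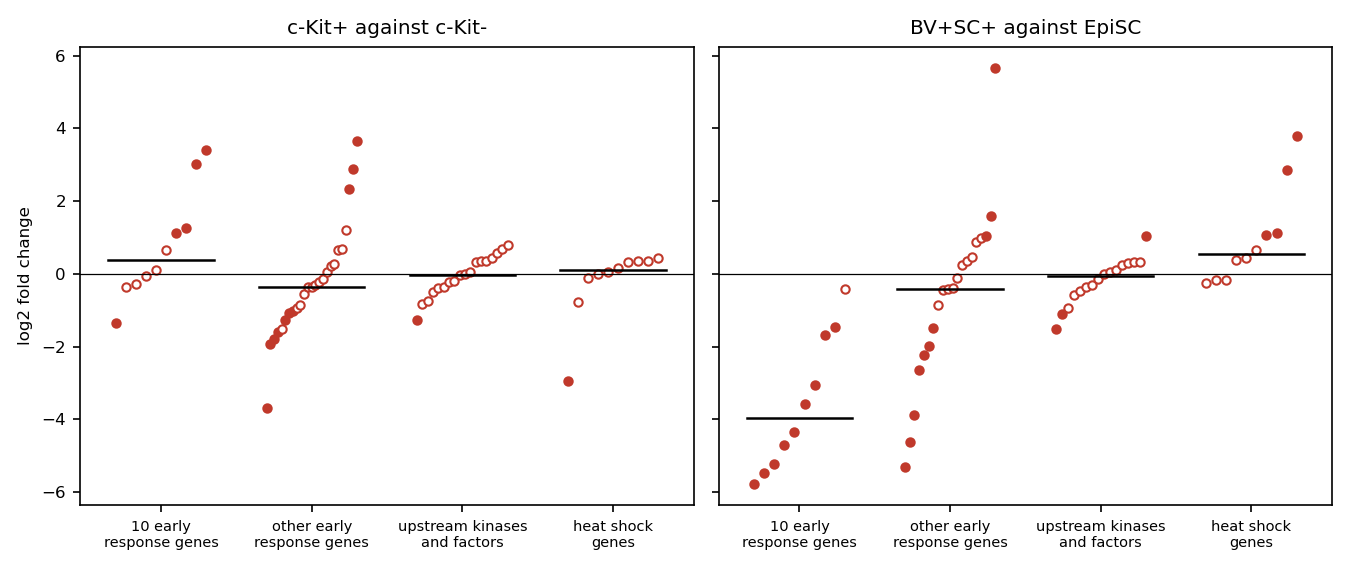
Log2 fold change of every tested gene of the 10 early response genes and 3 further lists, in c-Kit+ against c-Kit- cells (left) and BV+SC+ cells against EpiSCs (right), with filled points for an edgeR adjusted p under 0.05 and a change over 2-fold and a line at the median. The medians of the 10 genes were 0.38 and -3.96, and those of the other early response genes -0.35 and -0.41.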

How the data were processed

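Gene expression was measured by bulk RNA-seq in 11 libraries. The authors aligned reads with Bowtie2 to mm10 and estimated abundance with RSEM 1.3.1 (per the labels' processing notes), and deposited per gene the expected counts, unnormalised, and TPM, scaled by effective length and library total. Effective lengths differed between libraries, so TPM and CPM ratios differ. The c-Kit libraries came from an mRNA kit and the others from a total-RNA kit with rRNA removal, so tests were run within an experiment.

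The members and lists were chosen with earlier results of these data known, so calls and p-values of their genes are a description. Expected counts were rounded and fitted with edgeR 4.0.16 quasi-likelihood tests in R 4.3.3, after filterByExpr and TMM scaling, on the libraries of each comparison. A call needed a Benjamini-Hochberg adjusted p under 0.05 and a change over 2-fold. The study's threshold was read as adjusted. For SGC0946, with 1 library per condition, log2(TPM + 1) ratios were used, with exact binomial 95% intervals of the CPM ratio. Ranges between replicates used TMM CPM with a prior count of 2. Intervals and floors cover counting error only. The p-values set the difference between groups against the spread between these libraries, estimated with information shared over genes. That spread may be technical and, between the BV+SC+ libraries, may also hold a difference in medium. The scripts were tested on simulated data.

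Named genes were the 10 members, the called genes of the other early response list (with values for the 4 of largest change), the 2 of largest change called in the upstream and heat shock lists, and the 5 genes most like the member mean. Zfp36, Klf6, Csrnp1, Gadd45b, Mkl2 and the EpiSC counts of Egr3 and Egr4 were named after their values were seen. Replicates were compared and none were identical. Alternatives were DESeq2 1.42.0, other scaling and filters, the replicate number as a block, and leaving out each library.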

Additional observations from a re-analysis of the deposited data

How the results depend on the processing

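No called value changed direction under any alternative run. Calls at any fold instead of over 2-fold gave 3486 higher and 3122 lower genes in BV+SC+ cells and 2228 higher and 2346 lower in c-Kit+ cells. At any fold, the calls in BV+SC+ cells were 5 upstream and 8 heat shock genes, and those in c-Kit+ cells were 9 upstream and 5 heat shock genes. A filter of at least 10 counts in every library, which tests fewer genes, gave 1164 higher genes in BV+SC+ cells and 706 in c-Kit+ cells, and left 6 other early response and 0 heat shock calls in c-Kit+ cells. Leaving out 1 library at a time, upstream calls ranged from 1 to 4 and heat shock calls from 2 to 5 in BV+SC+ cells, upstream calls from 1 to 3 in c-Kit+ cells, and the early response genes over 2-fold apart in EpiSCs from 0 (without replicate 1) to 10. Dusp1 lost its call in BV+SC+ cells with DESeq2, with the 10-count filter and without EpiSC replicate 1. For SGC0946, 3 of the 10 genes exceeded 2-fold with a pseudocount of 0.1 or with CPM, against 2. The cause of these changes was not tested. With the replicate number as a block, 5 of the 10 genes were called in c-Kit+ and 9 in BV+SC+ cells, as without it, and all genes called were 1126 higher and 1401 lower in c-Kit+ cells. The labels do not say that a number marks a shared culture. Deviations of same-numbered libraries correlated at 0.114 in the sorted cells and at -0.0349 and 0.0037 in the other comparison. With 2 pairs, these values cannot decide whether same-numbered libraries shared a culture, so pairing remains unknown. Depth limits Egr2 most, with 3 to 10 counts in 8 libraries.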
